A study of Mus musculus with 15 samples.

Results

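The spleens of 3 mice taken 3 days after resection of 70% of the liver were compared with 3 intact spleens, numbered 4 to 6 in the labels, on Clariom S mouse arrays. These 6 arrays, out of 15 in the series, were taken by their day and replicate number, and every feature of the array other than controls was kept, which left 22206 of 28846 features. Each array held the RNA of 1 frozen spleen, and the labels call the arrays biological replicates. The day 3 mice, male C57bl/10, underwent the 70% resection under isoflurane. The intact mice were of the same strain and sex and were not operated on. Anaesthesia, opening of the abdomen and loss of liver tissue therefore cannot be told apart in this comparison. The ages of the mice are not given in the sources used here. The other 9 arrays, of intact spleens 1 to 3 and of spleens on days 1 and 7, entered the fit only as groups that share the estimate of spread.

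The mouse spleen filters blood in its red pulp, where macrophages take up ageing erythrocytes and recycle their iron, and holds B and T lymphocytes in its white pulp. In the mouse it also makes erythrocytes, platelets and granulocytes throughout life, and this production grows in anaemia and inflammation. Its outer capsule is covered by mesothelium, the flat epithelium that lines the peritoneal cavity. Blood leaving the spleen reaches the liver through the portal vein, so spleen cells and their products meet the regenerating liver first.

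Levels are given as log2 values, in which a difference of 1 is a 2-fold change, and a difference is always day 3 minus intact. The median level was 4.771 to 4.792 in the day 3 arrays and 4.797 to 4.875 in the intact arrays. B cell genes were high in both groups, with Cd79a, a part of the B cell receptor, at 13.3 to 15.03 on day 3 and 13.8 to 14.4 in intact spleens, whereas the spleen transcription factor Nkx2-5 lay near the bottom of the scale in both groups (2.81 to 2.92 and 2.80 to 3.12). Intact spleen 4 stood apart through pancreatic transcripts: the mean of 30 acinar genes was 3.65 to 3.78 in the day 3 arrays, against 5.48 in intact spleen 4 and 3.73 and 4.01 in intact spleens 5 and 6. Intact spleens 4 to 6 also differed from intact spleens 1 to 3 at 131 features, at 113 of which the day 3 mean lay nearer to spleens 4 to 6. The labels name no batch.

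Of the 22206 features, 2 were higher on day 3 at an adjusted p under 0.05 in limma's moderated test with Benjamini-Hochberg adjustment, which is 0.00901% of the features, and 0 (0%) were lower. The 2 were Prg4 and Gpm6a, and all other genes are given here by their values and differences, without a call. At an unadjusted p under 0.05 there were 1278 higher and 729 lower features. The looser filter that the array software applies by default, which asks for a 2-fold difference and an unadjusted p under 0.05, took 346 features as higher (1.56%) and 105 as lower (0.473%). All 3 day 3 arrays lay above all 3 intact arrays at 1506 features (6.78%) and below them at 1195 features (5.38%). These last percentages are the background for every count of non-overlapping genes given here. The median difference over all features was -0.00, with 49.46% of features higher on day 3, and the median standard error of a difference was 0.29, so that the 3 arrays in each group limit the precision. The p-values measure the spread within the 5 groups of the 15 arrays alone, and not only that of the 6 arrays compared. With only those 6 arrays in the fit, the limma adjusted p of both Prg4 and Gpm6a was 0.483.

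**Figure D1:**
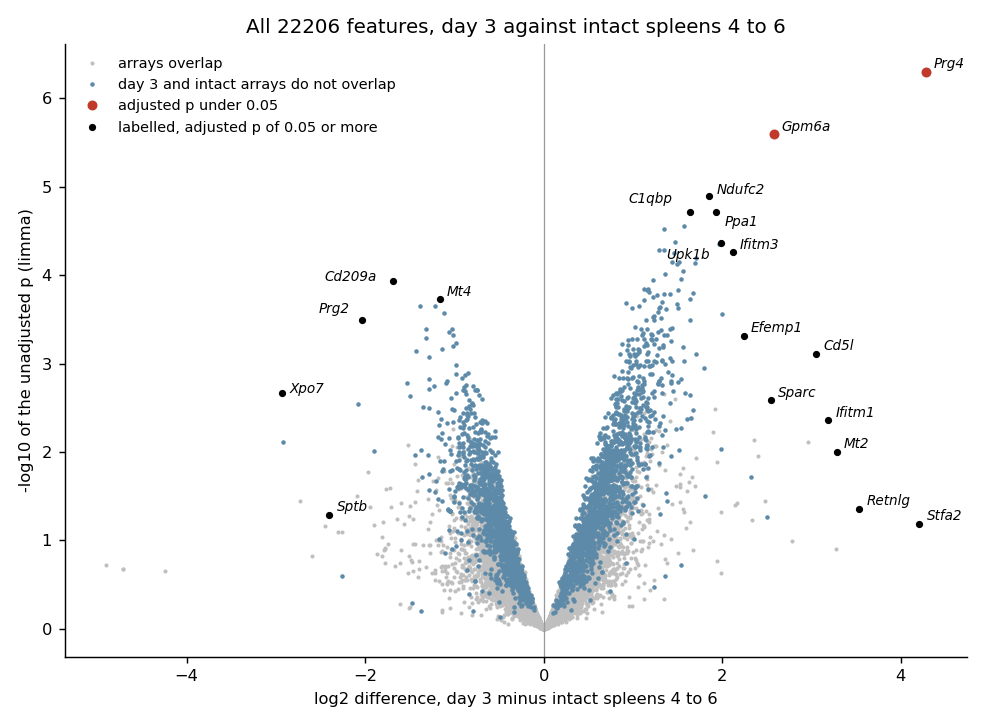
Each point is 1 of the 22206 features, with the log2 difference of day 3 minus intact spleens 4 to 6 on the horizontal axis and -log10 of the unadjusted limma p on the vertical axis. Prg4 and Gpm6a (red) are the 2 features past an adjusted p of 0.05, and the labelled black points are genes named in the text that did not pass it.

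Both genes that rose belong to the list of mesothelial genes. That list was written with earlier results of these data known, so their place in it is a description and not independent support. Prg4, which encodes the lubricant proteoglycan lubricin of joint and serosal surfaces, had levels of 9.58, 8.97 and 7.42 in day 3 replicates 1 to 3, against 3.99, 4.40 and 4.73 in intact spleens 4 to 6. Every day 3 array was far above every intact array, and the intact levels were below the median of their arrays. Prg4 rose by 4.28 ± 0.50 (SE, n = 3 arrays each), a 19.5-fold change (limma, Benjamini-Hochberg adjusted p = 0.0112). Gpm6a, a membrane glycoprotein best known from neurons, had levels of 8.63, 8.91 and 8.02 on day 3, against 5.32, 6.35 and 6.17 in intact spleens. Again no array overlapped, with replicate 3 the lowest of the day 3 arrays. Gpm6a rose by 2.58 ± 0.35, a 5.97-fold change (limma adjusted p = 0.0285). The calls depended on single arrays. The limma adjusted p of Prg4 was 0.151 without intact spleen 4, 0.0603 without intact spleen 6 and 0.0579 without day 3 replicate 2. That of Gpm6a was 0.152 without intact spleen 4, 0.127 without intact spleen 6, 0.142 without day 3 replicate 2 and 0.0981 without day 3 replicate 1.

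Other mesothelial genes had day 3 levels above the intact levels without passing the test. Upk1b, a uroplakin tetraspanin of mesothelium and urothelium, had 6.58, 5.87 and 5.89 on day 3, against 3.87, 4.23 and 4.31 in intact spleens, a difference of 1.98 ± 0.34 (limma adjusted p = 0.0866). Efemp1, a fibulin of the extracellular matrix, had 9.15, 8.36 and 7.35 on day 3, against 6.17, 6.77 and 5.20, a difference of 2.24 ± 0.50. Msln, which encodes the mesothelial surface protein mesothelin, had 6.65, 5.71 and 4.75, against 3.91, 4.31 and 4.30. Krt7, a keratin of simple epithelia, had 7.03, 6.02 and 6.05, against 5.08, 4.96 and 5.22. In each of these genes the day 3 arrays were all above the intact arrays, and replicate 1 was the highest. Of 21 measured mesothelial genes, 18 had a positive difference and 3 a negative one, 10 lay above all intact arrays and 1 below, and 8 passed the 2-fold filter as higher. The list median was 0.66, and by array it was 1.16, 0.56 and 0.39 in replicates 1 to 3. In whole spleens, a change in the number of cells of a type and a change in RNA per cell cannot be told apart.

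**Figure D2:**
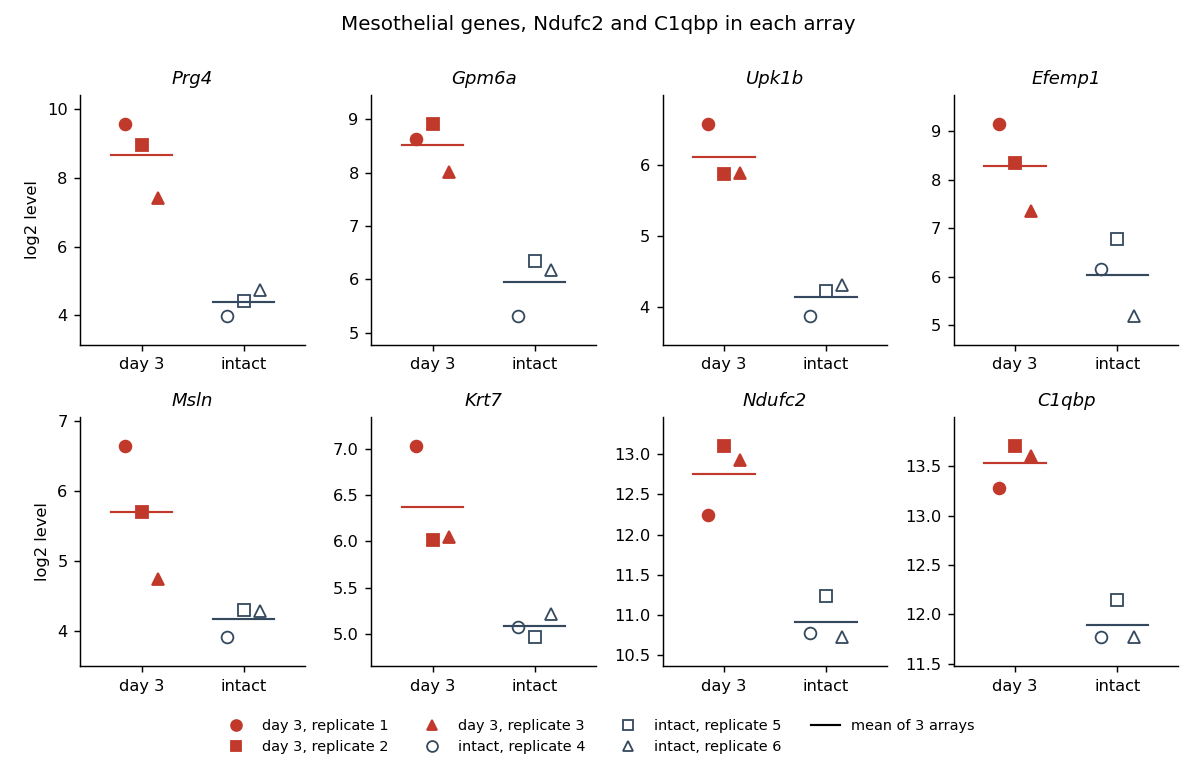
Log2 levels of 6 mesothelial genes, of the complex I subunit Ndufc2 and of C1qbp in each array, with day 3 in red on the left and intact spleens 4 to 6 in blue on the right, symbols for replicates and a line at the mean of 3 arrays. No gene shown has overlapping groups, and day 3 replicate 1 is the highest array for Prg4, Upk1b, Efemp1, Msln and Krt7.

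None of the next genes by p passed the test. Ndufc2, a subunit of respiratory complex I, had levels of 12.24, 13.11 and 12.93 on day 3, against 10.77, 11.24 and 10.72 in intact spleens (difference 1.85 ± 0.29, limma adjusted p = 0.0858). C1qbp, a protein of the mitochondrial matrix, had 13.28, 13.71 and 13.60, against 11.77, 12.14 and 11.77 (difference 1.63 ± 0.26). Ppa1, the cytosolic inorganic pyrophosphatase, had 10.76, 11.55 and 11.12, against 9.41, 9.23 and 9.02 (difference 1.92 ± 0.31). In these 3 genes the lowest day 3 array stood more than 1 unit above the highest intact array, and it was replicate 1 each time. Differences of 1.30 to 1.96 were found for Utp4, a part of the small-subunit processome, Bcap29, an endoplasmic reticulum protein of the BAP31 family, Prr15 and Pdk1, a kinase that restrains pyruvate entry into the citric acid cycle. Their limma adjusted p was 0.0866. With intact spleens 1 to 3 as the reference the differences were 0.923 for Utp4, 0.285 for Bcap29, 1.769 for Prr15 and 2.902 for Pdk1.

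Every measured gene of ribosome biogenesis had a higher mean on day 3. The list holds factors that make and process ribosomal RNA in the nucleolus, many of them targets of the transcription factor MYC. All 38 members had a positive difference, with 21 of 38 above all intact arrays, 0 below and 11 past the 2-fold filter. The median was 0.72, and 0.68, 0.85 and 0.64 in replicates 1 to 3, so that the 3 arrays differed little. Ltv1, needed for export of the small ribosomal subunit, had levels of 6.85, 7.16 and 6.53 on day 3, against 5.82, 5.78 and 5.22 in intact spleens. Lyar, a nucleolar protein of ribosomal RNA synthesis, had 10.70, 11.06 and 10.96, against 9.81, 9.88 and 8.79. The nucleolar helicase Ddx21 had 11.98, 12.14 and 11.63, against 11.17, 10.80 and 10.17. The groups did not overlap in any of these 3 genes, and their limma adjusted p was 0.144 to 0.166. Their differences from intact spleens 1 to 3 were 0.934 for Ltv1, 0.14 for Lyar and 1.123 for Ddx21. Myc itself had 10.85, 10.33 and 9.90 on day 3, against 9.80, 9.39 and 9.64 in intact spleens, with replicate 3 just above the highest intact array. The promoter of Ltv1 is shown because it holds the E-box CACGTG, the sequence that MYC and related factors bind. It is the RefSeq entry of build GRCm38.p6 at chr10:13193088-13193387, minus strand, a window of 300 bases that ends shortly after the gene's start, with the E-box in capitals at base 279 of the run.
Ltv1: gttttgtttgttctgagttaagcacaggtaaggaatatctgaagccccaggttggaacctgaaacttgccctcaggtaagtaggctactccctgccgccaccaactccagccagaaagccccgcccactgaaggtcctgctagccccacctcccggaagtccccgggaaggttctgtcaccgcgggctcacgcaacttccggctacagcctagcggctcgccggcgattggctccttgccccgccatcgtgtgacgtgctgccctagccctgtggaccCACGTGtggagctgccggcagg
Searched on both strands, CACGTG was found in 9 of the 33 ribosome biogenesis promoters in the table (27.3%) and in 7.24% of all 27025 promoters. A match is a description of the letters and not a bound site.

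Cytoplasmic ribosomal proteins, the building blocks of the ribosome, had a median of 0.54, with 56 of 59 differences positive, 20 above all intact arrays, 0 below and 12 past the 2-fold filter. Replicate 3 was the lowest, at 0.19, against 0.57 in replicate 1 and 0.81 in replicate 2. Rps25 had levels of 14.98, 14.99 and 14.46 on day 3, against 13.59, 13.46 and 13.33 in intact spleens (difference 1.35 ± 0.24, limma adjusted p = 0.0866). Rps26 had 12.26, 12.95 and 12.67, against 11.37, 10.83 and 11.63. Rplp0, of the ribosomal stalk, had 13.08, 13.79 and 13.08, against 12.37, 12.22 and 11.98. All 3 were clear of the intact arrays in every day 3 array. Rpl15 was 2.83-fold higher in the mean, but against intact spleens 1 to 3 its log2 difference was -0.001. Ribosomal protein genes have many processed copies in the genome, so part of their signal may come from near-identical sequences, which was not tested. After a further quantile normalisation the median was 0.30. The study's own pathway summary counts ribosomal protein, electron transport, proteasome and mRNA processing genes as lower on day 3, which is the opposite direction to the levels given here.

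The electron transport chain and ATP synthase, which carry out respiration in the inner mitochondrial membrane, had a positive difference in 75 of 77 members, with 41 above all intact arrays, 0 below and 20 past the 2-fold filter. The median was 0.63, and 0.53, 0.78 and 0.69 in replicates 1 to 3. Atp5g3, the c subunit of ATP synthase, had levels of 10.88, 11.63 and 10.91 on day 3, against 9.77, 9.33 and 9.79 in intact spleens (difference 1.51 ± 0.28, limma adjusted p = 0.0866). The complex I subunit Ndufs8 had 7.81, 8.59 and 7.68, against 6.84, 7.01 and 6.55, and Ndufv2, of the same complex, had 11.19, 11.43 and 11.34, against 10.58, 9.85 and 10.07. Replicate 2 was the highest array in each, and no array overlapped. Against intact spleens 1 to 3, Ndufs8 had a difference of the opposite sign (-0.49). The Atp5g3 promoter, chr2:73911277-73911576 of GRCm38.p6 on the minus strand, is shown for the match in capitals, at base 263, to the site of NRF1, a factor of nuclear genes for mitochondrial proteins.
Atp5g3: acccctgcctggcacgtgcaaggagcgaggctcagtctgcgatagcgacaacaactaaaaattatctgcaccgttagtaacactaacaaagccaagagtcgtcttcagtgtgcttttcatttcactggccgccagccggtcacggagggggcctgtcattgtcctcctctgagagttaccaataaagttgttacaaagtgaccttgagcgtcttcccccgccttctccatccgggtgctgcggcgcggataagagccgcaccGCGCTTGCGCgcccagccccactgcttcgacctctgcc
The letters GCGCNTGCGC, searched on both strands, stood in 17 of the 66 promoters found for this list (25.8%) and in 4.78% of all promoters.

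The proteasome, which degrades proteins marked with ubiquitin, had a median of 0.60, with 37 of 40 differences positive, 22 above all intact arrays, 0 below and 5 past the 2-fold filter. By array the median was 0.44, 0.82 and 0.79. Psma7, a subunit of the catalytic core, had levels of 9.81, 10.47 and 10.06 on day 3, against 8.58, 8.32 and 8.96 in intact spleens (difference 1.498 ± 0.27, limma adjusted p = 0.0866). Psmb2, also of the core, had 9.61, 10.27 and 9.62, against 8.87, 8.87 and 8.41. The day 3 arrays of both lay above all intact arrays, as did those of Psmc4 and Psmd8 of the regulatory cap, with differences of 1.00 ± 0.24 and 0.89 ± 0.23. Set against intact spleens 1 to 3, the differences were 1.049 for Psma7 and 1.42 for Psmb2, but only 0.065 for Psmc4 and 0.21 for Psmd8. The spliceosome list had a smaller median of 0.35, with 71 of 85 differences positive, 18 above all intact arrays, 2 below and 3 past the filter, and this median was 0.17 after a further quantile normalisation. Snrpd3 and Snrpd1, Sm proteins of the spliceosome core, had differences of 1.29 ± 0.30 and 1.21 ± 0.32, and Sf3a3, of the branch site complex, 0.69 ± 0.20. From intact spleens 1 to 3 these 3 genes differed by 0.386, 0.094 and 0.359. Ptbp1, a splicing repressor, had 9.34, 9.26 and 9.25 on day 3, against 7.82, 9.22 and 7.62, so that it cleared intact spleen 5 by little.

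Enzymes of serine and folate one-carbon metabolism, which supply purine synthesis, had a positive difference in 14 of 17 members and a median of 0.49, with 6 above all intact arrays, 1 below and 0 past the filter. Against intact spleens 1 to 3 this median was 0.14. Among the purine enzymes, Ppat, the committing step of the pathway, had levels of 7.62, 7.35 and 7.80 on day 3, against 6.87, 7.07 and 6.40 in intact spleens. Adsl and Gart also lay above all intact arrays, by differences of 0.80 ± 0.25 and 0.77 ± 0.29, whereas Atic overlapped, at 8.73, 9.75 and 9.40 on day 3, against 8.81, 7.61 and 8.95. The oxidative stress list had 21 of 28 differences positive, 7 above all intact arrays, 0 below and 7 past the filter, with a median of 0.38. Prdx4, a peroxiredoxin of the endoplasmic reticulum, had 10.14, 10.27 and 9.56 on day 3, against 8.51, 7.94 and 8.51 (difference 1.67 ± 0.33, limma adjusted p = 0.112). Txn1, thioredoxin, had 17.43, 16.98 and 17.02, against 15.63, 15.02 and 15.86. Both were above the intact arrays by a full unit or more. Prdx1 and Sod1, which remove peroxide and superoxide, had differences of 1.44 ± 0.35 and 1.04 ± 0.25. In respiration, the proteasome, splicing, one-carbon metabolism and the oxidative stress list, the median of replicate 3 was above that of replicate 1.

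**Figure D3:**
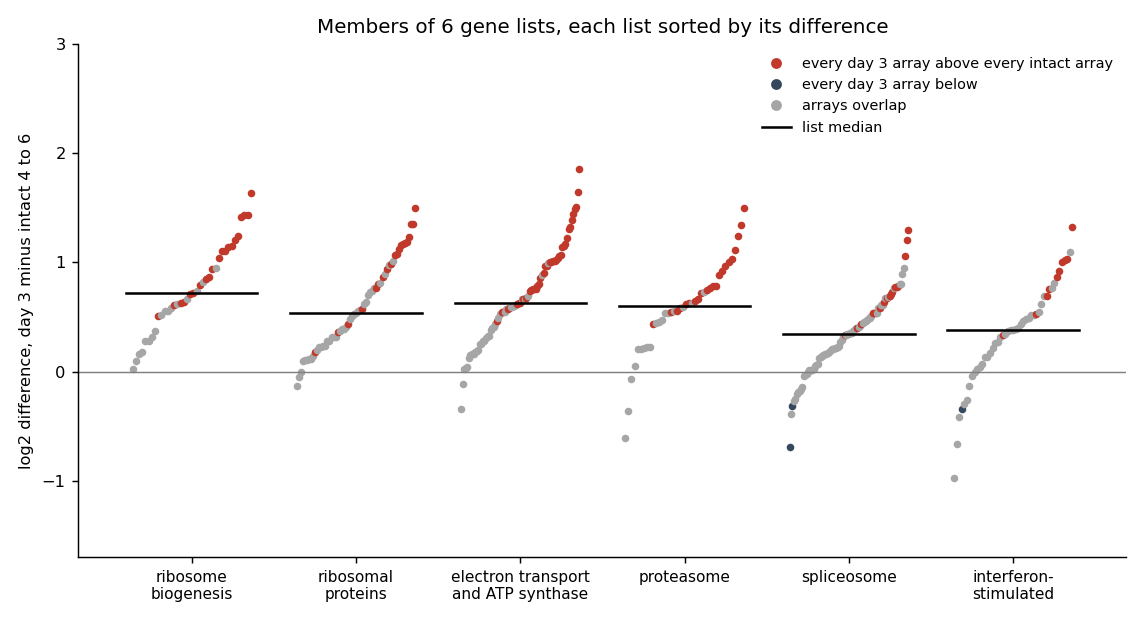
Each point is 1 gene of the list named below the axis, sorted by its log2 difference of day 3 minus intact spleens 4 to 6, red where every day 3 array lay above every intact array, blue where below and grey where the arrays overlap, with a black line at the list median. The medians are 0.72, 0.54, 0.63, 0.60, 0.35 and 0.39 from left to right.

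Interferon-stimulated genes, the antiviral programme of type I interferon, had 38 of 47 differences positive, a median of 0.39, 10 members above all intact arrays, 1 below and 4 past the 2-fold filter. The median was 0.27, 0.45 and 0.49 in replicates 1 to 3. Ifit3, an RNA-binding antiviral protein, had levels of 7.83, 8.17 and 7.87 on day 3, against 6.46, 7.15 and 6.28 in intact spleens (difference 1.33 ± 0.32, limma adjusted p = 0.166). Ifit3b had 7.02, 6.89 and 6.75, against 5.43, 6.36 and 5.76, and Ifit2 had 6.59, 6.48 and 6.70, against 5.82, 5.85 and 5.49. In all 3 the lowest day 3 array was above the highest intact array. Dhx58, a sensor of viral RNA, had 6.29, 6.01 and 5.70, against 5.08, 5.50 and 5.16. The interferon gamma list had a median of 0.08, with 14 of 24 differences positive, 0 members above all intact arrays and 1 below.

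The Ifitm genes encode membrane proteins that block virus entry, and they split the day 3 arrays more than the other interferon-stimulated genes. Ifitm3 had levels of 13.39, 13.004 and 12.11 on day 3, against 10.90, 10.87 and 10.40 in intact spleens (difference 2.11 ± 0.38, limma adjusted p = 0.0866). Ifitm1 had 13.80, 11.96 and 8.87, against 8.82, 8.26 and 8.01, and Ifitm2 had 15.25, 14.15 and 11.47, against 11.52, 11.30 and 10.99. Replicate 3 thus stood above all intact arrays for Ifitm3, barely so for Ifitm1, and among them for Ifitm2. Ifitm6, which is expressed by myeloid cells, had 15.15, 11.06 and 9.26, against 9.47, 10.52 and 9.65, and Ifitm7 was lower in every day 3 array (difference -0.56 ± 0.25). The median of the 6 measured members was 2.03, and 3.33, 1.73 and 0.11 in replicates 1 to 3. Without day 3 replicate 3, Ifitm1, Ifitm2 and Ifitm3 were called higher in the same test.

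The promoters of Ifitm3 and Ifit3 are shown because both hold the interferon-stimulated response element, searched as GAAANNGAAA on both strands and set in capitals. They are RefSeq entries of GRCm38.p6, Ifitm3 at chr7:141010695-141010994 on the minus strand, with matches at bases 253 and 270, and Ifit3 at chr19:34583279-34583578 on the plus strand, with matches on the opposite strand at bases 95 and 129.
Ifitm3: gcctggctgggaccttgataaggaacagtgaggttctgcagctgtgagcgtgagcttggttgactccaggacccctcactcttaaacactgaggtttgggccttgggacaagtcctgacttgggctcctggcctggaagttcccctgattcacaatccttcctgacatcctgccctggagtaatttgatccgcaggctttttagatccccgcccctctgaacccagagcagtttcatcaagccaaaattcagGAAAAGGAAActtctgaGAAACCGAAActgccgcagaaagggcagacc
Ifit3: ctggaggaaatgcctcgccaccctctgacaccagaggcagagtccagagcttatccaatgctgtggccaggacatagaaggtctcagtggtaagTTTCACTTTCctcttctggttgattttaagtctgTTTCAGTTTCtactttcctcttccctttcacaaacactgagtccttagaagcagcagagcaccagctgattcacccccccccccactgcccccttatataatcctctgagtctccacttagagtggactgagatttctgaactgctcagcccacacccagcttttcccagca
The element was in 16 of the 35 promoters found for the interferon-stimulated list (45.7%), in 2 of 6 Ifitm promoters and in 3.49% of all promoters. Ifitm3 and Ifit3 differed in their day 3 arrays all the same, with replicate 3 the lowest by far for Ifitm3 and level with replicate 1 for Ifit3.

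Metallothioneins are small zinc and copper binding proteins whose genes respond to metals, glucocorticoids and inflammation. Mt2 had levels of 13.28, 10.79 and 11.91 on day 3, against 8.86, 9.08 and 8.19 in intact spleens (difference 3.28 ± 1.11, limma adjusted p = 0.359). Mt1 had 15.28, 13.46 and 13.23, against 11.74, 12.03 and 11.22 (difference 2.32 ± 0.88). All 3 day 3 arrays were above all intact arrays for both genes, with replicate 1 the highest, and the spread between the day 3 arrays was wide. Against intact spleens 1 to 3 the differences were smaller, 0.32 for Mt1 and 1.69 for Mt2. Mt4, a metallothionein of squamous epithelia, went the other way, at 4.39, 3.57 and 3.91 on day 3, against 4.96, 5.07 and 5.33 (difference -1.16 ± 0.24, limma adjusted p = 0.112). Mtf1, the zinc-sensing factor that drives Mt1 and Mt2, had 8.29, 7.82 and 8.93, against 9.23, 8.86 and 8.75, with replicate 3 among the intact arrays. Over the 8 genes of the metallothionein and zinc list the median was -0.07, with 3 positive and 5 negative. The promoters of the neighbouring genes Mt1 and Mt2 are shown for the core of the metal response element that Mtf1 binds, searched as TGCGCNC or TGCACNC on both strands. Both are on the plus strand of GRCm38.p6, Mt1 at chr8:94178839-94179138 with 3 matches at bases 228, 253 and 271, and Mt2 at chr8:94172368-94172667 with 4, at bases 28 and 123 and, on the opposite strand, 201 and 255.
Mt1: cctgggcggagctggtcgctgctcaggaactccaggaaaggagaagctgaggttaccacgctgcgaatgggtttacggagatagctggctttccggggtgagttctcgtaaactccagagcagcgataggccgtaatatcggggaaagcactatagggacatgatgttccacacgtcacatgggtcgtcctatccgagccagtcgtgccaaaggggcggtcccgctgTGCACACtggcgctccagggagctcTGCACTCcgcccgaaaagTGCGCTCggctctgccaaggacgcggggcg
Mt2: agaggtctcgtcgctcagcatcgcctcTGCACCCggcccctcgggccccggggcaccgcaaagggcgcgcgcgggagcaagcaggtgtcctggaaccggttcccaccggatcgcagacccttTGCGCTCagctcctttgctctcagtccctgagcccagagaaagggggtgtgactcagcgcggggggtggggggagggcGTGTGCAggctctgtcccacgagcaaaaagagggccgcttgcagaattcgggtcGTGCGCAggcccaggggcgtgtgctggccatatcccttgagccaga
This short core stood in 5 of the 7 promoters found for the list (71.4%), but also in 25.6% of all promoters.

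The day 3 arrays differed among themselves more than the intact arrays did. Over all features the correlation was 0.978 between replicates 1 and 2, 0.964 between 1 and 3 and 0.956 between 2 and 3, against 0.977 to 0.982 among intact spleens 4 to 6. Each day 3 array correlated with the intact arrays at 0.973, 0.969 and 0.973 on average. In replicate 3, 437 features were at least 1 unit above the highest intact array, against 507 in replicate 1 and 506 in replicate 2. No intact array was counted against the others in this way. How many such features ordinary spread between mice would give is therefore not known. The numbers at least 1 unit below the lowest intact array were 142, 393 and 303 in replicates 1 to 3.

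Where replicates 1 and 2 both lay far from the intact arrays, replicate 3 lay nearer to them in the median. In 154 features both replicates 1 and 2 lay at least 1 unit above all intact arrays, by a median difference of 1.75, and at these features the median difference of replicate 3 was 0.20 and 70 (45.5%) were above all intact arrays. With the array left out changed, the same count gave 44 features, of which replicate 1 was above in 43 (97.7%), and 29 features, of which replicate 2 was above in 27 (93.1%). In 48 features replicates 1 and 2 were at least 1 unit below all intact arrays, by a median of -1.99. There replicate 3 had a median of 0.86, on the other side, and 9 (18.8%) were below all intact arrays. The same intact arrays entered both the choice and the values, so these numbers are a description. Over all features, replicate 3 joined replicates 1 and 2 above all intact arrays at 1506 of 3474 features and below them at 1195 of 2826. The 45.5% is near that share, and the 18.8% is below it. Among the 64 gene lists, the median of replicate 3 had the opposite sign to both others in 35, that of replicate 2 in 13 and that of replicate 1 in 2. All 3 arrays were above 0 in 12 lists and below 0 in 2.

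The number of calls was larger without replicate 3. With it left out, and the spread still taken from all groups, limma called 64 features higher (0.288%) and 6 lower (0.027%) at a Benjamini-Hochberg adjusted p under 0.05. In 30 of the 64 the left-out replicate 3 was itself above all intact arrays, and in 1 of the 6 it was below them. The same intact arrays entered the choice of these features, so these 2 counts are a description. The background percentages given above need all 3 day 3 arrays and do not apply to them. Over all features, replicate 3 joined the other 2 day 3 arrays above the intact arrays at 1506 of 3474 features, and below them at 1195 of 2826. The 30 of 64 is near that share and is not particular to the called features. The 64 held both Prg4 and Gpm6a, 5 of the 21 mesothelial genes in all, 4 of 35 matrix glycoproteins and proteoglycans, 3 of 6 Ifitm genes, 3 of 77 genes of respiration, 2 of 38 ribosome biogenesis factors and 2 of 59 ribosomal proteins. Since the lists were written with earlier results of these data known, these counts are a description. Without replicate 1 there were 3 calls higher and 0 lower, and without replicate 2 there were 0 higher and 1 lower, Apol7c.

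**Figure D4:**
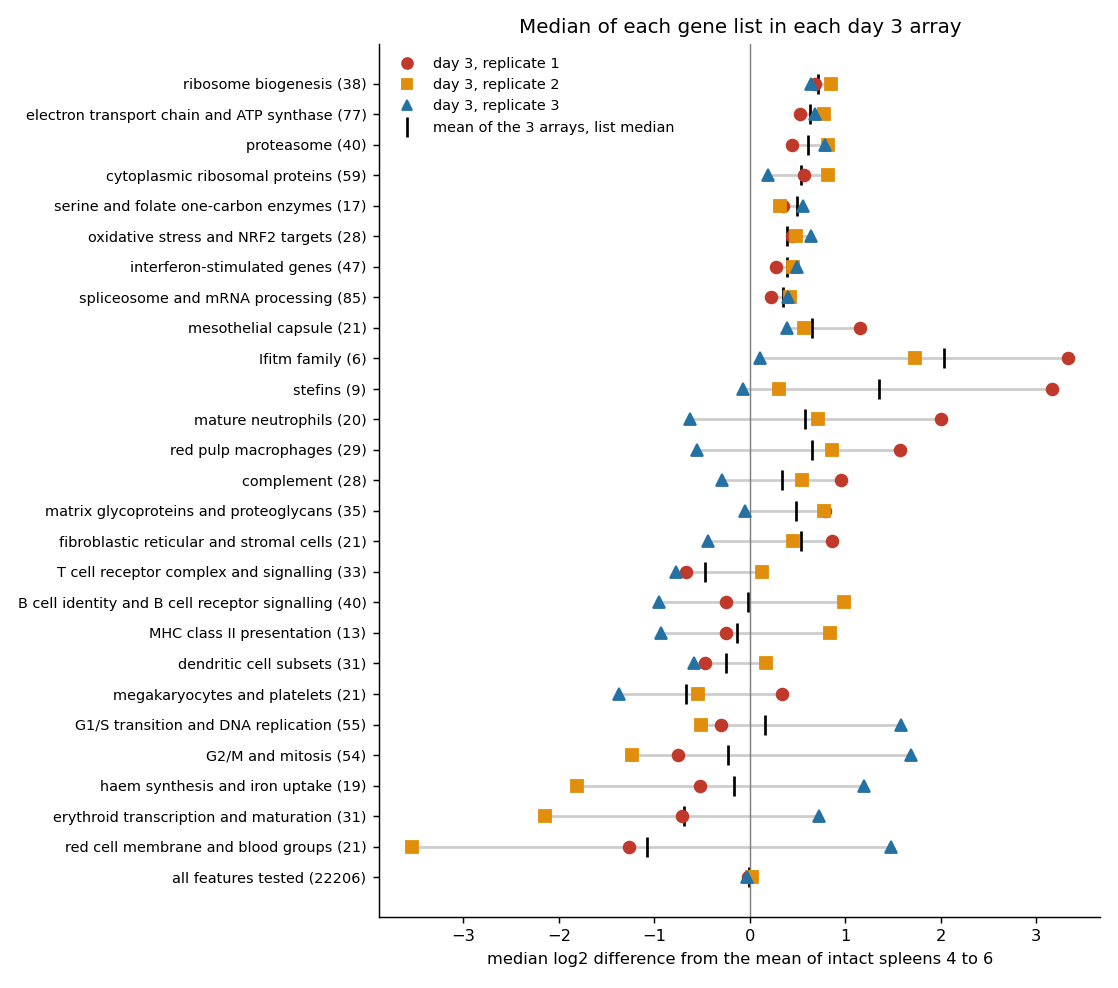
For each gene list (number of measured genes in brackets) the symbols give the median log2 difference from the mean of intact spleens 4 to 6 in day 3 replicates 1 to 3, and the black bar the list median of the mean of the 3 arrays. The 3 symbols lie together to the right of 0 for ribosome biogenesis, respiration and the proteasome, and replicate 3 lies opposite to the others for macrophage, neutrophil, erythroid and cell cycle lists.

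Red pulp macrophages, which clear erythrocytes and recycle iron, had 24 of 29 differences positive and a median of 0.65, but by array it was 1.57, 0.86 and -0.56. Without replicate 3 the median was 1.32, and without replicate 1 it was 0.10. Cd5l, a scavenger protein secreted by tissue macrophages, had levels of 12.28, 10.38 and 8.21 on day 3, against 7.06, 7.02 and 7.63 in intact spleens (difference 3.05 ± 0.72, limma adjusted p = 0.156). C1qc, of the first complement component, had 9.88, 8.81 and 7.81, against 7.48, 7.13 and 7.37. For both, replicate 3 was nearest to the intact level yet above it. Clec4n, a lectin of myeloid cells that binds fungal sugars, had 12.02, 10.21 and 8.42, against 8.56, 7.30 and 8.95, with replicate 3 among the intact arrays. Slco2b1, an organic anion transporter, had a difference of 0.70 ± 0.28. The complement list had a median of 0.33, and 0.95, 0.54 and -0.29 by array.

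Neutrophil genes were also highest in replicate 1 and lowest in replicate 3, with a wider spread. The mature neutrophil list had 16 of 20 differences positive and a median of 0.58, and 2.00, 0.71 and -0.63 in replicates 1 to 3, which became 1.31 without replicate 3 and 0.16 without replicate 1. Retnlg, a resistin-like protein of neutrophils, had levels of 19.69, 16.35 and 11.64 on day 3, against 12.14, 13.12 and 11.83 in intact spleens. The stefins are inhibitors of cysteine proteases, several of them made by neutrophils, and Stfa2 had 13.07, 6.28 and 4.36, against 3.00, 3.66 and 4.42. Stfa2l1 had 12.98, 7.15 and 5.22, against 4.17, 5.86 and 5.49. In these 3 genes replicate 1 was above all other arrays by more than 3 units and replicate 3 lay within or below the intact range. Stfa1 had 7.22 in replicate 1 alone, against 3.21 and 2.86 in the other day 3 arrays and 2.75 to 3.09 in intact spleens, and Csta1 was near the bottom of the scale in every array. The acute phase gene Saa3 had 12.19, 6.88 and 5.86, against 5.31, 5.87 and 5.40, and Wfdc17, of activated myeloid cells, had 11.90, 8.92 and 6.66, against 7.30, 5.00 and 7.74. Slfn4, of the Schlafen family in myeloid cells, had 10.96, 8.33 and 6.42, against 6.43, 7.24 and 5.56. Slfn1 had 7.509, 7.345 and 6.449, against 5.738, 6.369 and 6.152 (difference 1.01 ± 0.30), so that replicate 3 cleared the intact arrays by little. Replicate 3 fell among the intact arrays for Saa3, Wfdc17 and Slfn4.

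Matrix and stromal genes also separated replicates 1 and 2 from replicate 3. Matrix glycoproteins and proteoglycans had 31 of 35 differences positive, with 6 above all intact arrays, 0 below and 5 past the 2-fold filter, and a median of 0.49, or 0.78, 0.78 and -0.05 by array. Sparc, a collagen-binding glycoprotein, had levels of 14.99, 15.35 and 12.18 on day 3, against 12.19, 10.25 and 12.46 in intact spleens. The small proteoglycan Dcn had 14.12, 12.74 and 9.79, against 9.83, 8.17 and 9.78. For both, replicate 3 lay among the intact arrays. Sparcl1, related to Sparc, had a difference of 1.92 ± 0.55, and Mgp, an inhibitor of calcification, one of 1.19 ± 0.30. The collagen list had a median of 0.20, with 12 of 16 differences positive. Col1a1 had 6.15, 7.37 and 6.30, against 5.65, 5.43 and 5.43, and Col3a1 had 9.08, 9.09 and 6.99, against 6.74, 6.85 and 6.95, so that replicate 3 cleared the intact arrays by little for Col3a1. Mmp14, a membrane-bound collagenase, had a difference of 1.36 ± 0.33, and Eng, an endothelial and stromal receptor for TGF-beta, one of 1.64 ± 0.33 (limma adjusted p = 0.112), with all arrays apart in both. Serpina3n, a secreted serine protease inhibitor, had 11.73, 8.61 and 7.42, against 6.17, 7.08 and 7.00.

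Genes of the erythroid lineage were lower in replicates 1 and 2 and higher in replicate 3. The red cell membrane list had 19 of 21 differences negative and a median of -1.07, made up of -1.27, -3.54 and 1.48 in replicates 1 to 3. It was -2.35 without replicate 3 and 0.03 without replicate 2. Sptb, the spectrin of the red cell skeleton, had levels of 11.94, 8.28 and 14.93 on day 3, against 13.84, 15.07 and 13.43 in intact spleens. Epb42, which anchors that skeleton, had 11.36, 7.47 and 14.18, against 13.64, 14.11 and 12.16. In both genes replicate 2 was by far the lowest array, replicate 1 lay below the intact arrays and replicate 3 was as high as the highest of them. Haem synthesis had medians of -0.52, -1.81 and 1.19 by array.

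For a few single erythroid genes replicate 3 was low as well. In the erythroid transcription and maturation list, 29 of 31 differences were negative, and the median was -0.69, or -0.71, -2.15 and 0.72 by array. Of the 31 members, 3 lay below all intact arrays, as did 5.38% of all features. So small a count does not set the list apart. These 3 were Xpo7, an exportin needed for nuclear condensation, Tmcc2 and Trim58, a ubiquitin ligase of enucleating erythroblasts. Xpo7 had levels of 12.48, 8.91 and 12.70 on day 3, against 14.33, 14.74 and 13.81 in intact spleens (difference -2.93 ± 0.79, limma adjusted p = 0.224). Tmcc2 had 12.74, 8.53 and 13.78, against 15.05, 14.44 and 14.33, and Trim58 had 6.88, 4.65 and 7.42, against 7.82, 8.503 and 8.32. Replicate 3, which was above the intact mean for most of the list, was below every intact array for these. Bpgm, which makes the haemoglobin regulator 2,3-bisphosphoglycerate, had 10.84, 8.03 and 8.05, against 9.74, 11.89 and 9.68, so that replicates 2 and 3 were low together. The actin regulator Fhdc1 had 9.01, 7.10 and 11.23, against 10.84, 11.59 and 10.82, and was called lower when replicate 3 was left out.

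**Figure D5:**
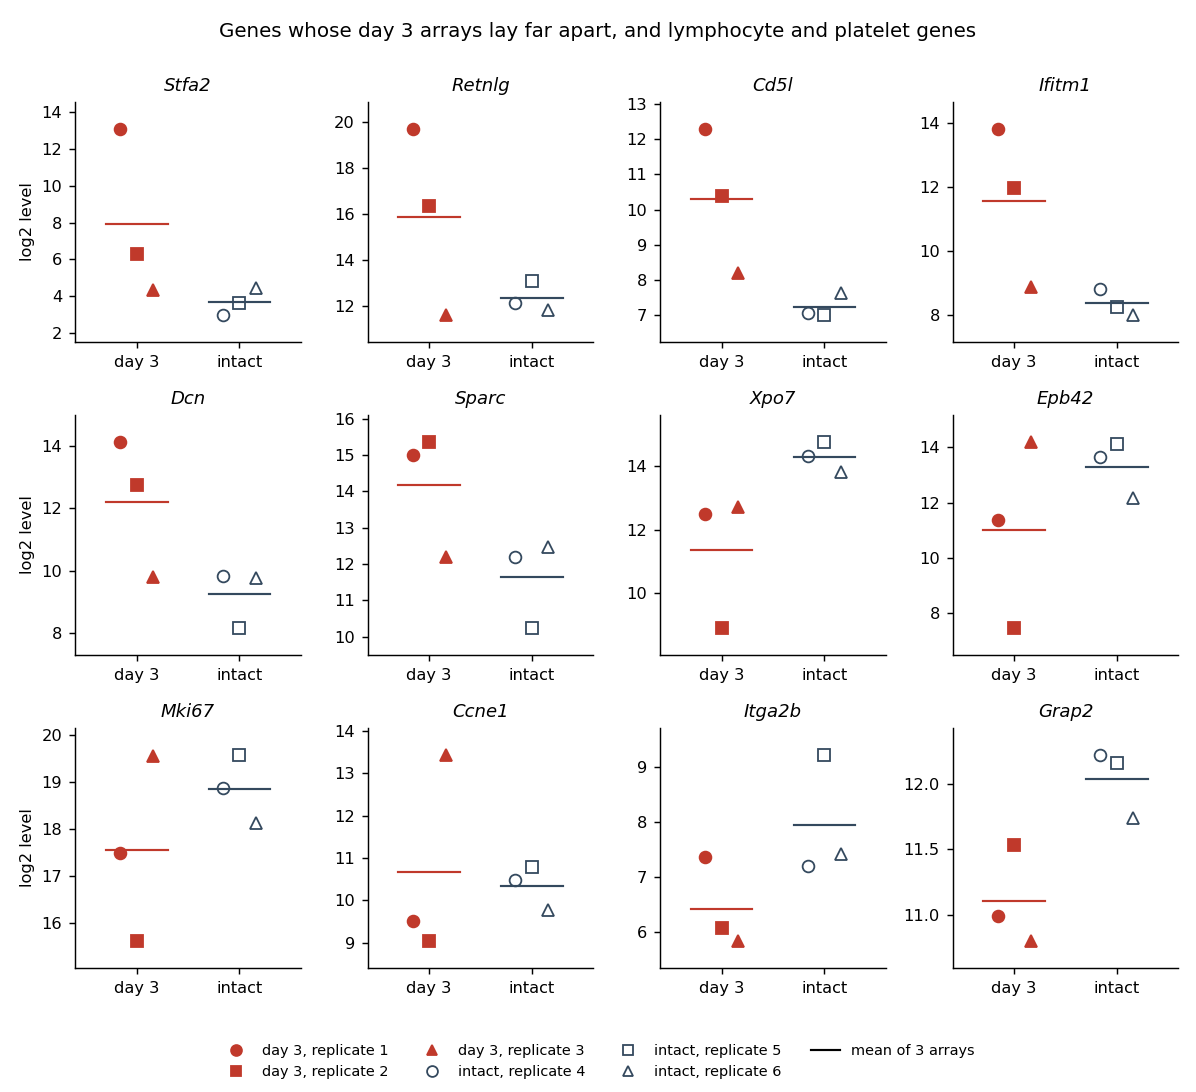
Log2 levels of 12 genes in each array, with day 3 in red on the left and intact spleens 4 to 6 in blue on the right, symbols for replicates and a line at the mean of 3 arrays. Day 3 replicate 3 (triangle) is the lowest day 3 array from Stfa2 to Sparc and the highest from Xpo7 to Ccne1, and Grap2 and Xpo7 have every day 3 array below every intact array.

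Cell cycle genes differed across the day 3 arrays as the erythroid genes did. The G2/M list had medians of -0.75, -1.24 and 1.68 in replicates 1 to 3, and the G1/S and DNA replication list had -0.31, -0.51 and 1.59. Leaving out replicate 3 gave -0.97 for G2/M and -0.47 for G1/S, and leaving out replicate 2 gave 0.43 and 0.61. Mki67, the marker of cycling cells, had levels of 17.50, 15.63 and 19.56 on day 3, against 18.87, 19.57 and 18.13 in intact spleens. Ccna2, the cyclin of S and G2 phases, had 11.51, 9.998 and 14.57, against 12.54, 13.12 and 11.43, and Ccne1, the cyclin of S phase entry, had 9.51, 9.05 and 13.42, against 10.48, 10.78 and 9.78. Replicate 2 was below the intact arrays for all 3, and replicate 1 for Mki67 and Ccne1. For Ccna2, replicate 1 was just above intact spleen 6. Replicate 3 was the highest array for both cyclins. The mitotic genes Cenpf, Espl1 and Ndc80 had mean differences of -0.93, -0.56 and -0.52. Replicate 3 lay within the intact range for Espl1 and Ndc80 and just above it for Cenpf. In the spleen of the mouse, erythroblasts are among the most actively dividing cells, and the part of cell makeup in these values was not tested.

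T cell genes were low in 2 of the 3 day 3 arrays, and also in intact spleen 5. The list of the T cell receptor complex and its signalling had 32 of 33 differences negative, a median of -0.47, 3 members below all intact arrays, 0 above and 1 past the 2-fold filter as lower. By array the median was -0.67, 0.13 and -0.78. The list's mean level was 7.35, 8.28 and 7.20 on day 3, against 8.28, 7.57 and 8.30 in intact spleens. Grap2, an adaptor of the receptor, had levels of 10.99, 11.54 and 10.80 on day 3, against 12.22, 12.16 and 11.74 in intact spleens. Trat1, which stabilises the receptor complex, had 5.33, 6.24 and 5.85, against 6.76, 6.45 and 6.56. The day 3 arrays of both were below the intact arrays, replicate 2 by the least. Icos, a costimulatory receptor, had 8.18, 9.94 and 8.63, against 9.93, 9.50 and 10.49, and the kinase Prkcq had 10.16, 11.08 and 10.15, against 11.67, 10.69 and 11.55, and both overlapped through replicate 2. Gzma, a granzyme of killer cells, differed in the other direction, at 6.92, 7.86 and 6.25, against 5.28, 5.30 and 5.79 (difference 1.56 ± 0.36, limma adjusted p = 0.152). Its own list, of NK and cytotoxic effector genes, had 9 positive and 19 negative differences, a median of -0.14, 1 member above all intact arrays and 3 below. Set against intact spleens 1 to 3, the T cell list had a median of 0.26, so its direction depended on the intact spleens used.

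Dendritic cell genes had 21 of 31 negative differences and a median of -0.26, with 6 members below all intact arrays, 0 above and 4 past the 2-fold filter. Cd209a, a lectin of monocyte-derived dendritic cells, had the smallest p among the lower features, with levels of 3.06, 3.08 and 3.29 on day 3, against 5.45, 4.15 and 4.89 in intact spleens (difference -1.69 ± 0.32, limma adjusted p = 0.109). The day 3 values lay close together near the bottom of the scale. Clec9a, the receptor for dead cells on cross-presenting dendritic cells, had 4.39, 5.27 and 5.62, against 5.97, 7.33 and 5.83. Apol7c, of the same cells, had 3.77, 7.37 and 5.38, against 7.53, 7.52 and 7.72, and the chemokine Ccl22 had a difference of -0.60 ± 0.23. The groups were apart in all 4, although Apol7c differed by over 3 units between day 3 replicates. Against intact spleens 1 to 3 the list median was 0.17 and the difference of Apol7c 2.03, both of the opposite sign. B cell genes had a median of -0.02, made up of -0.25, 0.98 and -0.95 by array, and MHC class II genes one of -0.13, made up of -0.25, 0.84 and -0.94. Replicate 2 was the high array in both.

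Megakaryocyte and platelet genes had 19 of 21 negative differences and a median of -0.67, or 0.33, -0.55 and -1.37 by array. Itga2b, the platelet integrin, had levels of 7.37, 6.07 and 5.84 on day 3, against 7.20, 9.22 and 7.42 in intact spleens. Intact spleen 5 carried much of this: the mean level of the list was 7.63, 6.93 and 6.11 on day 3, against 6.86, 8.96 and 6.71 in intact spleens 4 to 6. Among eosinophil genes, Prg2, the major basic protein of their granules, had 4.65, 4.39 and 4.47, against 6.59, 7.46 and 5.56 (difference -2.03 ± 0.43, limma adjusted p = 0.125), and Ear6, a ribonuclease of eosinophils, had 4.32, 4.61 and 4.07, against 5.69, 5.91 and 5.25. Both were below all intact arrays, while the whole list of eosinophil, basophil and mast cell genes had a median of 0.08. Ccr2, the chemokine receptor of inflammatory monocytes, had 6.87, 7.77 and 7.23, against 8.49, 8.57 and 8.25, although 16 of 22 genes of the monocyte list had positive differences. The other features with the smallest p among the lower ones, all between limma adjusted p of 0.112 and 0.144, were Aldh3b2, H4f16, Matk, Rnf223, Chit1, Fam71b and Sh2b2, with differences of -1.01 to -1.39. Aldh3b2 is an aldehyde dehydrogenase, H4f16 a histone H4 gene, Matk a kinase related to Csk, Chit1 a chitinase and Sh2b2 an adaptor of receptor signalling. Other than for H4f16, the day 3 levels of these features were below the median of their arrays. Against intact spleens 1 to 3 all their differences were smaller, from -0.38 for Chit1 to -0.90 for H4f16.

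Of 13 surface markers that the study stained or sorted by, 0 passed the test and 0 had groups that did not overlap, and 6 had a positive difference and 7 a negative one. Cd4 had levels of 6.97, 8.35 and 6.67 on day 3, against 8.68, 7.73 and 8.27 in intact spleens, and Cd3e had 8.93, 9.73 and 8.95, against 10.35, 8.58 and 10.16. Cd8a had a difference of -0.59 ± 0.60. The macrophage markers Adgre1, Mrc1 and Cd163 had differences of 0.32 ± 0.45, 0.93 ± 0.77 and 0.65 ± 0.55, and Csf1r, the receptor for the macrophage growth factor, one of 0.87 ± 0.70. Replicate 1 was the highest array for Mrc1, Cd163, Adgre1 and Csf1r. Ptprc, the common leukocyte antigen, had 17.00, 18.31 and 15.46, against 17.69, 16.85 and 17.94. Ly6c1, Ly6c2, Cd1d1 and Cd86 had differences of -0.35 ± 0.42, -0.33 ± 0.44, 0.10 ± 0.31 and 0.54 ± 0.35. Serpina1b, a serine protease inhibitor expressed by liver, was at 2.70, 3.07 and 2.96 on day 3, against 2.24, 2.56 and 2.94, at the bottom of the scale in both groups.

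The choice of intact spleens changed some lists and left others. Against intact spleens 1 to 3, in the same fit and with the same day 3 arrays, the median was 0.71 for ribosome biogenesis, 0.63 for ribosomal proteins, 0.42 for respiration and 0.70 for interferon-stimulated genes. It was 0.41 for mesothelial genes, 0.29 for the proteasome, 0.17 for red pulp macrophages, 0.79 for B cell genes, 1.00 for MHC class II genes, -1.44 for megakaryocyte genes and -0.23 for stefins. Prg4 had a difference of 4.08 and Gpm6a one of 1.57 against those spleens, while Efemp1 had 0.59 and Krt7 0.41. The acinar list shows how far the intact sets were apart: its median was -0.50 against intact spleens 4 to 6 and -5.38 against intact spleens 1 to 3. Amy2a5, pancreatic amylase, had levels of 4.77, 4.08 and 5.13 on day 3, against 15.82, 4.41 and 6.48 in intact spleens 4 to 6. Only intact spleen 4 of these 6 was high. The part that pancreatic tissue in that sample had in the other values was not tested, beyond the results without it. These were, besides those of Prg4 and Gpm6a, medians of 0.72 for ribosome biogenesis, 0.77 for respiration, 0.66 for the proteasome, 0.42 for interferon-stimulated genes and 0.77 for mesothelial genes.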

How the data were processed

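Per the labels, frozen spleens were lysed in QIAzol, and the study's methods name RNeasy columns for the RNA. Biotin-labelled cRNA was hybridised to Clariom S mouse arrays, 1 spleen per array. The authors summarised the scans by RMA (background correction, quantile normalisation, probe summary) in their array software, Transcriptome Analysis Console, run at its defaults, and deposited log2 values, the unit used here without change. Quantile normalisation gives all arrays nearly the same distribution, so levels are relative within an array, and array files before it were not analysed here. Values run from 1.79 to 19.93, and 37 features reached the upper end in at least 1 of the 6 arrays. Of 28846 features, 6640 controls were left out. Gene names came from the platform annotation (19572 features with 1 symbol, 2634 without), and of several features of a gene (55 genes) the one with the highest mean was used.

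A model with 5 groups (intact 1 to 3, intact 4 to 6, days 1, 3 and 7) was fitted to 15 arrays with limma 3.58.1 in R 4.3.3 (lmFit, eBayes, 10 residual degrees of freedom), with Benjamini-Hochberg adjustment over 22206 features. The code was tested on simulated data. Named genes were the 10 higher and 10 lower features with the smallest p among those with a fold of at least 2 and no overlap, genes that the study names, features with day 3 replicate 3 inside the intact range, and up to 4 members with the smallest p of each list described. The members, the intact spleens used and all 64 gene lists were chosen with earlier results of these data known. Of 1673 listed symbols, 153 had no single-symbol feature. Promoters came from RefSeq (GRCm38.p6). Alternatives changed the samples fitted, the intact set, the filter, the weights, the scaling and the threshold, and left out each array in turn.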

Additional observations from a re-analysis of the deposited data

How the results depend on the processing

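No paired analysis was possible because the day 3 arrays are numbered 1 to 3 and the intact arrays compared are numbered 4 to 6, so that the groups share no number. The 2 features called higher became 0 with only the 6 arrays fitted (smallest limma adjusted p 0.483, 1536 features at an unadjusted p under 0.05), 5 against all 6 intact arrays, 159 against intact arrays 1 to 3, 346 by the 2-fold filter and 0 at an adjusted p under 0.01. Leaving out each array in turn gave 0 to 64 called higher, with the 64 without day 3 replicate 3 and the 0 without day 3 replicate 2, intact 4 or intact 6. The 0 features called lower became 1 against all 6 intact arrays, 48 against intact arrays 1 to 3 and 105 by the 2-fold filter, and 0 to 6 with 1 array left out, 6 without day 3 replicate 3. The 1506 features above all intact arrays became 621 against all 6 intact arrays and 2318 to 3474 with 1 array left out, and the 1195 below became 413 against all 6, 1969 against intact arrays 1 to 3 and 2078 to 2826 with 1 array left out. Fewer arrays overlap less often by construction, and for the other counts the cause was not tested. A filter on the dimmest 25% of features, a prior with trend and robust fit, array weights, median centring and a further quantile normalisation kept both counts of calls within 1.5 times. Over all these fits the limma adjusted p ran from 0.000515 to 0.483 for Prg4 and from 0.00799 to 0.483 for Gpm6a, with differences of 3.82 to 4.90 and 1.57 to 2.83.

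For the 138 genes given with a difference, 1838 values kept their direction and side of the threshold, 49 passed it, 10 lost it and 33 changed sign. Against intact arrays 1 to 3 the sign changed for Stfa2 (-1.30), Stfa2l1 (-1.02), Serpina1b (-4.21), Ccne1 (-1.12), Csf1r (-0.018), Mrc1 (-1.08), Cd163 (-0.61), Cd8a (2.13), Ndufs8 (-0.49), Rpl15 (-0.001), Slfn4 (-1.14), Grap2 (0.50), Trat1 (0.27), Prkcq (0.23), Apol7c (2.03), Ear6 (0.37) and Dbp (-0.57). Against all 6 intact arrays it changed for Serpina1b (-1.94), Ccne1 (-0.40), Mrc1 (-0.079) and Cd8a (0.77), and with array weights for Ccne1 (-0.26). With 1 array left out it changed within a range of -1.61 to 0.68 for Ccna2, -1.07 to 1.12 for Ccne1, -0.11 to 1.15 for Cd163, -0.57 to 0.051 for Ly6c1, -1.26 to 0.16 for Ptprc, -0.58 to 0.13 for Ly6c2, -0.19 to 0.76 for Adgre1 and -0.32 to 0.34 for Cd1d1. One end of each range, other than that of Ly6c2, came without a day 3 array, replicate 3 for Ccne1, Ccna2, Ly6c1, Ptprc and Adgre1. The cause was not tested for any of them. With 3 arrays in each group, differences of the size of the median standard error were not detectable.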

Other observations

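Of 21 glucocorticoid-induced genes, 19 had a positive difference on day 3 and 5 lay above all intact arrays, with a median of 0.30 that was 1.01, 0.32 and -0.27 in replicates 1 to 3, with 0.84 without replicate 3 and 0.00 without replicate 1. The 18 circadian clock genes had a median of 0.04. Of them, 2 lay above and 2 below all intact arrays, against 6.78% and 5.38% of all features, so these small counts do not set the list apart. Dbp, an output factor of the clock, had levels of 9.66, 11.91 and 9.26 on day 3, against 8.47, 8.87 and 8.06 in intact spleens, and Cry1, a repressor in the clock, had 5.99, 5.98 and 5.83, against 7.14, 6.43 and 6.69. The study states the hour of resection for the operated mice, and the hour at which intact spleens were taken is not given in the sources used here. Among growth factors and cytokines (median 0.11 over 51 genes), the Wnt amplifier Rspo3 had 5.35, 4.91 and 4.68 on day 3, against 3.44, 3.19 and 4.39, and Il18 had 11.54, 10.40 and 8.498, against 8.62, 7.89 and 8.23. The B cell survival factor Tnfsf13b had 5.24, 4.44 and 4.10, against 5.43, 5.70 and 5.28. Rspo3 and Tnfsf13b were apart in all arrays, in opposite directions, and Il18 overlapped through replicate 3. Tgm2, a crosslinking transglutaminase, had a difference of 0.80 ± 0.28.

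Chaperones were uneven. The 30 heat shock and chaperone genes had a median of -0.27, yet 5 lay above all intact arrays and 0 below. The sign of this median turned without intact spleen 4, to 0.20, and it was -0.56 without intact spleen 5 and -0.035 without day 3 replicate 1. Cct2 and Tcp1, subunits of the cytosolic chaperonin that folds actin and tubulin, were among the higher ones, with levels of 15.57, 15.86 and 15.57 for Cct2 on day 3, against 14.88, 14.69 and 14.47 in intact spleens, and a difference of 0.96 ± 0.33 for Tcp1. Ahsa2, an activator of the HSP90 chaperone, had 7.70, 7.41 and 8.07, against 10.10, 7.67 and 9.62, so that intact spleen 5 was as low as the day 3 arrays.

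In 60 features replicate 3 lay inside the intact range while replicates 1 and 2 were both at least 1 unit outside it on the same side, 51 above and 9 below. The 8 named genes below with the widest gap were Sptb, Samd11, Fhdc1, Fbxo30, Dennd4a, Dnajb4, Dapk2 and Ache. Dnajb4, a co-chaperone of the HSP40 family, had 8.45, 8.43 and 10.22 on day 3, against 10.25, 10.31 and 10.15 in intact spleens, with both other day 3 arrays well apart. Ache, acetylcholinesterase, which red cells also carry, had 4.99, 4.78 and 6.82, against 6.47, 6.93 and 6.03. The same count with replicate 1 inside and the other day 3 arrays outside gave 1 above and 2 below, and with replicate 2 inside, 0 above and 3 below.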
